A study of Mus musculus with 20 samples.

Results

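The livers of adult sons of dams kept at thermoneutrality during gestation were compared with those of sons of dams kept under standard housing. The comparison rests on 10 arrays, 5 from offspring of 30 °C dams and 5 from offspring of 23 °C dams, each from 1 animal. It was read across 9413 named transcript clusters, the probe groups that stand for a gene's transcripts, out of 22206 on the array. A cluster was included when its mean over all 20 arrays of the series lay above 4.75 on the log2 scale, the highest array mean of the negative control rows, whose probes match no transcript. On either side of that bound lay H1f1 (mean 4.75, difference 0.14) and Lmnb1 (4.75, -0.00), just below, and Fam219b (4.75, 0.25) and Prr5 (4.75, -0.13), just above. The 9413 clusters carried 9386 gene symbols. All differences below are 30 °C minus 23 °C offspring, on the log2 scale.

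All animals were male C57BL/6NCr wild-type mice of 4 to 5 months. Dams of the 30 °C group had been acclimated for 3 weeks before breeding, and their sires were exposed for 3 days. Breeding pairs of the 23 °C group stayed at the usual temperature of the animal house and served as controls. On the day of delivery every dam moved with her pups to 23 °C, and the sons of both groups grew up at 23 °C on standard chow. The same series holds 5 sons each of 18 °C and 10 °C dams, which enter here only through the shared estimate of spread and a few mean levels. Single animals are named by their group and by the animal number in the titles. The labels give no litter, batch, time of day or feeding state, so the p-values measure the spread between these animals, some of which may share a dam.

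Thermoneutrality is the range of ambient temperature in which a mouse need not produce extra heat, and a standard animal house lies below it. A mouse housed there draws on brown adipose tissue, which burns fatty acids and glucose to make heat. The liver holds the machinery that the study's title touches through glucose tolerance: it releases glucose in the fasted state, stores it as glycogen and turns it into fat in the fed state. Many liver transcripts also follow the time of day and the last meal.

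The control rows of the arrays gave no difference between the groups past the test. The negative control rows averaged 4.59 ± 0.06 (SD, n = 5) in 30 °C and 4.63 ± 0.09 in 23 °C offspring, a difference that did not pass a two-sided exact permutation test (p = 0.429, adjusted p = 0.889 over 4 array measures). The background control rows averaged 3.66 ± 0.06 and 3.65 ± 0.02 (exact p = 0.690, adjusted p = 0.889). With 5 arrays against 5 the smallest p that this test can give is 0.0079. Pairs of arrays correlated over the transcript clusters at a median of 0.990 within the 30 °C group, 0.991 within the 23 °C group and 0.990 between the groups, which describes arrays that share most of their signal. All 11 measured hepatocyte markers were above background in these livers.

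No transcript differed between 30 °C and 23 °C offspring past the threshold. Of 22206 transcript clusters, 0 (0%) had a limma adjusted p under 0.05, and the smallest adjusted p was 0.978. Among the 9413 named clusters above background, 413 (4.39%) had an unadjusted p under 0.05, where 470.7 would be expected with no difference at all. Of these, 206 (2.19%) were higher and 207 (2.2%) were lower in 30 °C offspring. Over all 22206 clusters the shares were 4.84% in either direction, 2.21% higher and 2.63% lower. The median difference was -0.00, and 49.5% of the clusters were higher. The differences of the middle 95% of clusters ran from -0.42 to 0.40.

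The data bounded most changes to small sizes. The standard error (SE) of a difference had a median of 0.179 over the 9413 clusters. For 9022 of them (95.8%) the 95% interval of the difference lay within a 2-fold change either way, and for 6185 (65.7%) within a 1.5-fold change. For 391 clusters the interval reached past 2-fold, so that a change of that size was not bounded by 5 against 5 animals. With the clusters in 3 equal groups by level, the median SE was 0.202 in the lowest, 0.178 in the middle and 0.155 in the highest. In 7990 clusters (84.9%) the SD within the groups exceeded the difference between them. Means of 5 animals vary less than single animals, so most clusters would show this with no group difference at all.

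**Figure D1:**
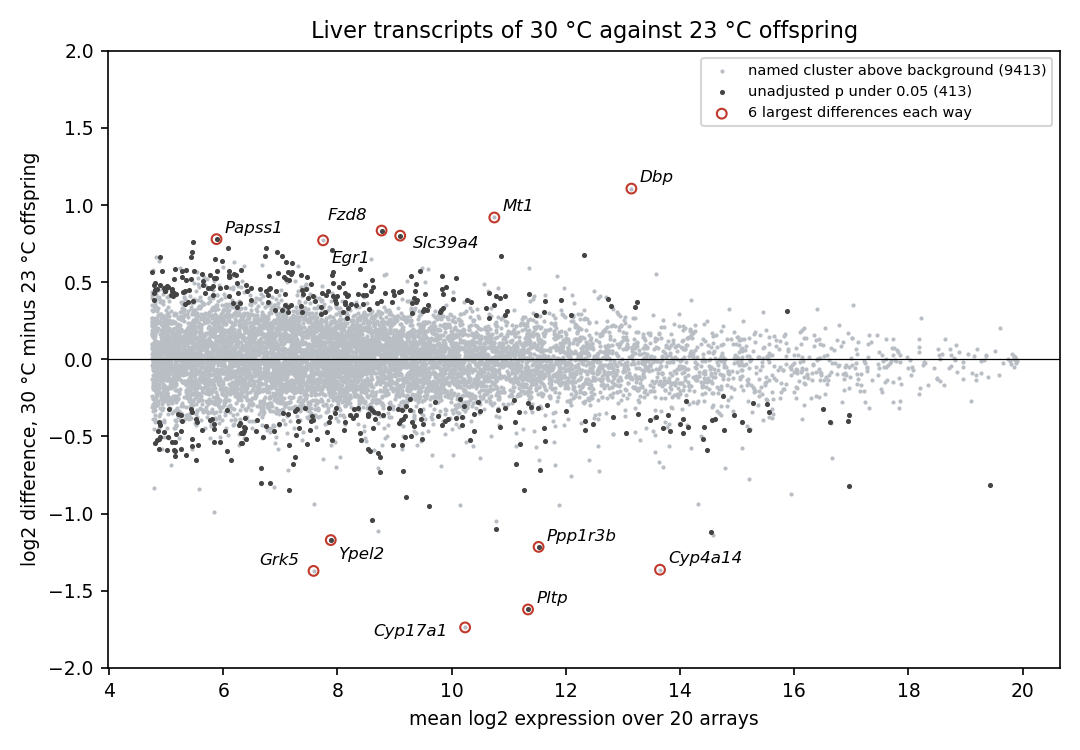
Log2 difference (30 °C minus 23 °C offspring, y axis) against mean log2 expression over 20 arrays (x axis) for the 9413 named clusters above background. Each point is 1 cluster, dark points are the 413 with an unadjusted p under 0.05, and red circles mark the 6 largest differences each way. The cloud is centred on 0, with Dbp at 1.11 as its highest and Cyp17a1 at -1.74 as its lowest point.

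Among the genes higher in 30 °C offspring, the smallest p belonged to Herc3, a ubiquitin ligase of the HECT family. Its log2 levels were 5.97, 5.73, 6.07, 5.92 and 5.89 in 30 °C animals 4, 5, 6, 7 and 8, and 5.14, 4.63, 5.19, 5.31 and 5.49 in 23 °C animals 1, 2, 15, 17 and 23. The groups did not overlap. The difference of 0.76 ± 0.19 (SE, n = 5 per group), or 1.7-fold, had an unadjusted p of 0.00067 and did not pass limma's adjustment (adjusted p = 0.978). Arrays are listed in the same order of animals from here on.

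The next by p was Ppp1r37, a regulatory subunit of protein phosphatase 1, at 8.07, 8.05, 8.06, 7.96 and 7.83 in 30 °C against 7.61, 7.64, 7.51, 7.36 and 7.64 in 23 °C offspring. These groups did not overlap either, and the difference was 0.44 ± 0.12. Golga1, a golgin of the trans-Golgi network, stood at 6.42, 6.96, 6.11, 6.26 and 6.49 against 6.24, 5.71, 5.31, 5.47 and 5.91 (0.72 ± 0.20), with an overlap that came from 23 °C animal 1. Mtif2, the initiation factor of mitochondrial translation, stood at 10.08, 10.44, 10.05, 10.22 and 10.11 against 9.66, 9.53, 9.76, 9.88 and 9.72 (0.47 ± 0.15). Its groups were apart. Fyco1, an adaptor that carries autophagosomes along microtubules, was also without overlap, at 8.01 to 8.25 against 7.31 to 7.84 (0.56 ± 0.18).

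The other genes of this kind had groups that touched or crossed. Ddb2, which recognises damaged DNA, differed by 0.52 ± 0.16, and Cep68, a centrosome protein, by 0.63 ± 0.19. Tbl1xr1, a component of nuclear receptor corepressor complexes, differed by 0.54 ± 0.17 and Laptm4b, a lysosomal membrane protein, by 0.69 ± 0.22. Ralgapa1, the catalytic subunit of a Ral GTPase activator, differed by 0.56 ± 0.18. These genes belong to different processes, and each had a limma adjusted p of 0.978.

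Among the genes lower in 30 °C offspring, Gm4349, a predicted gene, had the smallest p, with levels of 4.43, 4.77, 4.64, 4.51 and 4.65 against 5.49, 4.96, 5.18, 5.53 and 4.74. Most of its 30 °C levels lay below the bound of 4.75, close to background. Mcee, the methylmalonyl-CoA epimerase of propionate breakdown, stood at 10.04, 9.88, 10.19, 10.11 and 10.10 against 10.36, 10.74, 10.81, 10.79 and 10.24, a difference of -0.52 ± 0.15 (limma adjusted p = 0.978). Its groups did not overlap, by a margin of 0.06. Desi2, a peptidase of the desumoylating family, stood at 6.76, 6.93, 7.09, 6.38 and 7.01 against 7.46, 7.38, 7.31, 8.05 and 7.39. It differed by -0.68 ± 0.19 with a margin of 0.21 between the groups, and 23 °C animal 17 lay far above the rest of its group.

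Msr1, the scavenger receptor of macrophages, stood at 7.33, 6.77, 7.03, 6.92 and 6.27 against 7.58, 7.38, 7.49, 7.87 and 7.17 (-0.63 ± 0.18). Only 30 °C animal 4 and 23 °C animal 23 crossed. Macrophage markers as a list are given below, and whether they bear on Msr1 was not tested. Sult1b1, a cytosolic sulphotransferase, stood at 7.60, 7.91, 8.81, 9.10 and 8.39 against 9.09, 9.13, 9.40, 8.65 and 9.20 (-0.73 ± 0.23), with 30 °C animals 6 and 7 inside the range of the 23 °C group. Mfsd4b5, a transporter of the major facilitator family, differed by -0.70 ± 0.20, Clcn6, an endosomal chloride transporter, by -0.54 ± 0.16 and Dynlt3, a dynein light chain, by -0.55 ± 0.17. Gpatch2, a G-patch protein, differed by -0.46 ± 0.14 and Atad1, which removes misplaced proteins from the outer mitochondrial membrane, by -0.43 ± 0.14. All had a limma adjusted p of 0.978.

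In 63 of the 9413 named clusters (0.669%) the groups did not overlap, and the share was 0.752% over all 22206 clusters. In 43 (0.457%) every 30 °C animal was above every 23 °C animal, and in 20 (0.212%) below. Over all clusters these shares were 0.419% and 0.333%. The widest margin was that of Trmt11, a methyltransferase of transfer RNA, at 6.35, 6.23, 6.79, 6.27 and 6.40 against 5.72, 5.72, 5.73, 5.91 and 5.78. Its groups were 0.32 apart at the nearest animals, and the difference was 0.64 ± 0.20 (limma adjusted p = 0.978). Hlcs, the synthetase that attaches biotin to the carboxylases of fatty acid, glucose and amino acid metabolism, stood at 5.96, 6.04, 6.57, 6.04 and 5.99 against 5.50, 5.70, 5.64, 5.59 and 5.77. It differed by 0.48 ± 0.16, and 30 °C animal 6 lay well above its group. The uncharacterised 0610010F05Rik differed by 0.49 ± 0.20 with a margin of 0.27.

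Of the genes without overlap that were lower in 30 °C offspring, Ndufc1, a subunit of respiratory complex I, stood at 13.71, 13.93, 13.96, 13.71 and 13.96 against 14.18, 14.42, 14.37, 14.21 and 14.04. It differed by -0.39 ± 0.14. Bex3, a small protein of the BEX family, differed by -0.48 ± 0.20 and Krtap5-1, a keratin-associated protein, by -0.44 ± 0.18. Ptpn4, a protein tyrosine phosphatase, differed by -0.34 ± 0.26. The SE rests on all 4 groups, as for every gene here, and the 95% interval included 0 (-0.87 to 0.20). Its 10 animals were nonetheless apart, at 5.40 to 5.61 against 5.70 to 5.98. Bex3 stood at 4.40 to 4.89 in 30 °C offspring, around the bound of 4.75, close to background.

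**Figure D2:**
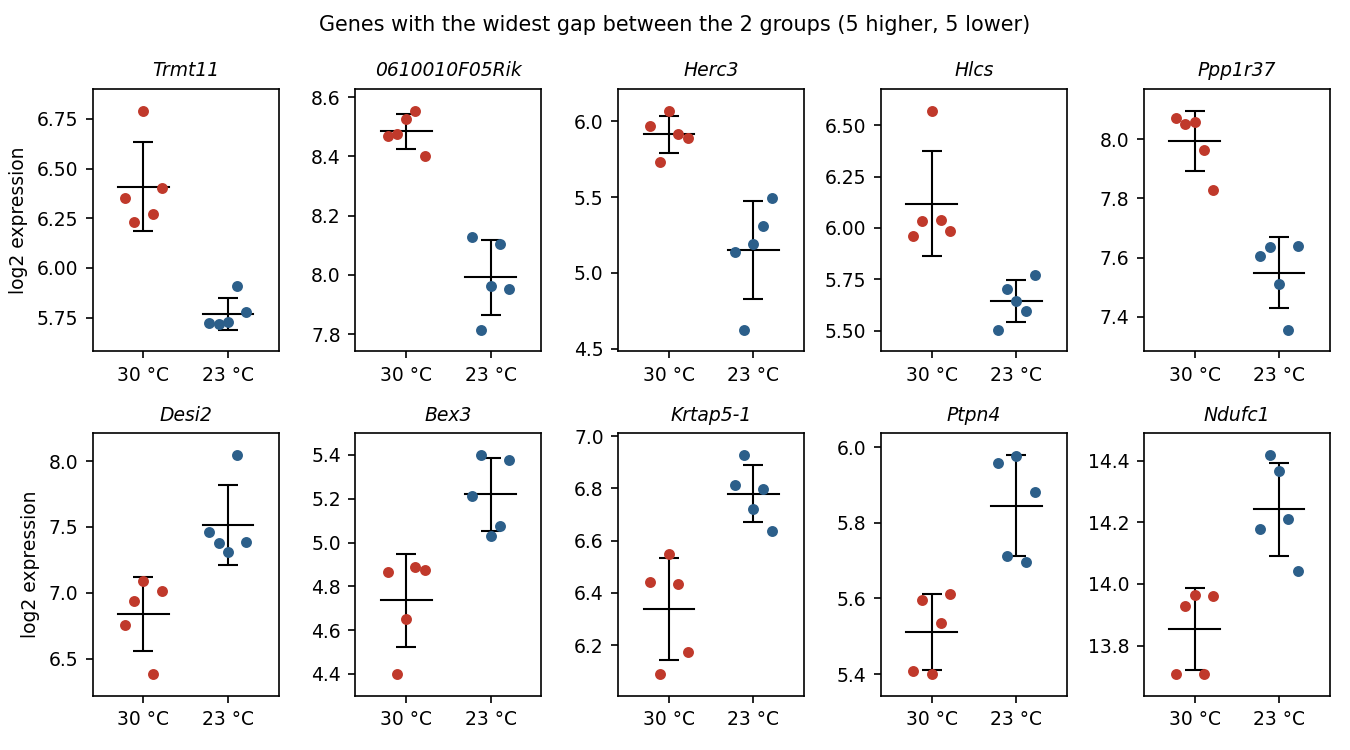
Log2 expression (y axis) of the 10 genes with the widest gap between the groups, 5 higher (top) and 5 lower (bottom) in 30 °C offspring. Points are animals, horizontal lines are group means and bars are 1 SD (n = 5). The scales differ between panels, and the nearest animals of the groups are 0.32 apart for Trmt11 and 0.21 for Desi2.

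The largest differences fell on genes that varied widely among animals. Only 13 named clusters differed by more than 1, 1 higher (0.0106%) and 12 lower (0.127%) in 30 °C offspring, against 0.036% and 0.0991% over all 22206 clusters. Cyp17a1, a steroid hydroxylase that mouse liver expresses at higher levels in females, stood at 7.47, 7.81, 8.88, 9.68 and 13.19 against 10.22, 12.38, 10.12, 13.01 and 10.00. Animal 8 of the 30 °C group had the highest level of all 10, and the other 4 lay below every 23 °C animal. The difference was -1.74 ± 1.01, or 3.34-fold (95% interval -3.84 to 0.36, limma adjusted p = 0.978).

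Pltp, the phospholipid transfer protein of plasma lipoproteins, stood at 8.34, 7.92, 11.19, 9.21 and 12.93 against 11.85, 11.74, 12.08, 12.14 and 9.89. Animals 4, 5 and 7 of the 30 °C group and 23 °C animal 23 were low, and 30 °C animal 8 was the highest. The difference was -1.62 ± 0.76 (95% interval -3.20 to -0.04, unadjusted p = 0.044, limma adjusted p = 0.978). The SE and interval pool the spread of all 4 groups, while the 30 °C animals were spread more widely than the 23 °C animals. Cyp4a14, a fatty acid omega-hydroxylase, stood at 11.03, 11.41, 12.78, 10.85 and 14.31 against 13.09, 13.24, 13.82, 14.54 and 12.50 (-1.36 ± 0.82). There too 30 °C animal 8 stood apart from its group.

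Grk5, a kinase of G protein-coupled receptors, differed by -1.37 ± 0.71, with 23 °C animal 17 at 10.60 and animal 2 at 5.93. Ypel2, a Yippee family protein, stood at 7.24, 6.68, 7.05, 7.31 and 8.38 against 8.37, 7.49, 8.98, 9.60 and 8.08 (-1.17 ± 0.47). Only 30 °C animal 8 reached into the 23 °C range. Ppp1r3b, the liver subunit that brings protein phosphatase 1 to glycogen, stood at 9.08, 13.02, 11.87, 10.62 and 11.52 against 12.58, 12.07, 12.89, 12.17 and 12.48. It differed by -1.22 ± 0.54, the 23 °C group was narrow, and 30 °C animal 5 was the highest of all 10. Each had a limma adjusted p of 0.978. Without 30 °C animal 8 the difference was -2.68 for Cyp17a1, and without 23 °C animal 17 it was -0.83 for Grk5.

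On the higher side, Dbp, a transcription factor whose level follows the time of day, led with 1.11 ± 1.11 and is described with the clock genes. Mt1, a zinc-binding metallothionein, stood at 11.19, 9.26, 10.56, 11.46 and 13.79 against 9.60, 9.20, 10.80, 12.15 and 9.91 (0.92 ± 0.96), with 30 °C animal 8 highest. Slc39a4, a zinc importer, stood at 9.51, 9.54, 10.02, 9.34 and 8.70 against 9.63, 8.39, 8.98, 7.67 and 8.43 (0.80 ± 0.28). The groups overlapped. Fzd8, a Wnt receptor, differed by 0.83 ± 0.30, and Papss1, which makes the sulphate donor of sulphotransferases, by 0.78 ± 0.36. For Papss1, 30 °C animals 6, 7 and 8 stood at 6.38, 7.57 and 7.67, above the 23 °C range of 5.50 to 5.87. Egr1, an immediate early transcription factor, differed by 0.77 ± 1.21. These values moved with single animals. Dbp was 0.40 without 23 °C animal 17 and 2.11 without 23 °C animal 2, Mt1 0.29 without 30 °C animal 8, and Egr1 0.15 without 23 °C animal 23 and 1.75 without 23 °C animal 2. Of these 6 genes, Dbp and Mt1 had limma adjusted p of 0.986 and 0.987, Egr1 0.987, and the others 0.978.

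The genes were also read in 43 lists, 32 of pathways and 11 of cell type markers. For scale, over all 9413 named clusters 4664 were higher, 4748 were lower and the median difference was -0.00. No member of any list passed limma's adjustment, so the counts below give only the sign of each difference. Members of a list share regulators and animals and are not independent of each other. In a sample of whole liver, fewer cells of a type and less RNA per cell cannot be told apart.

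**Figure D3:**
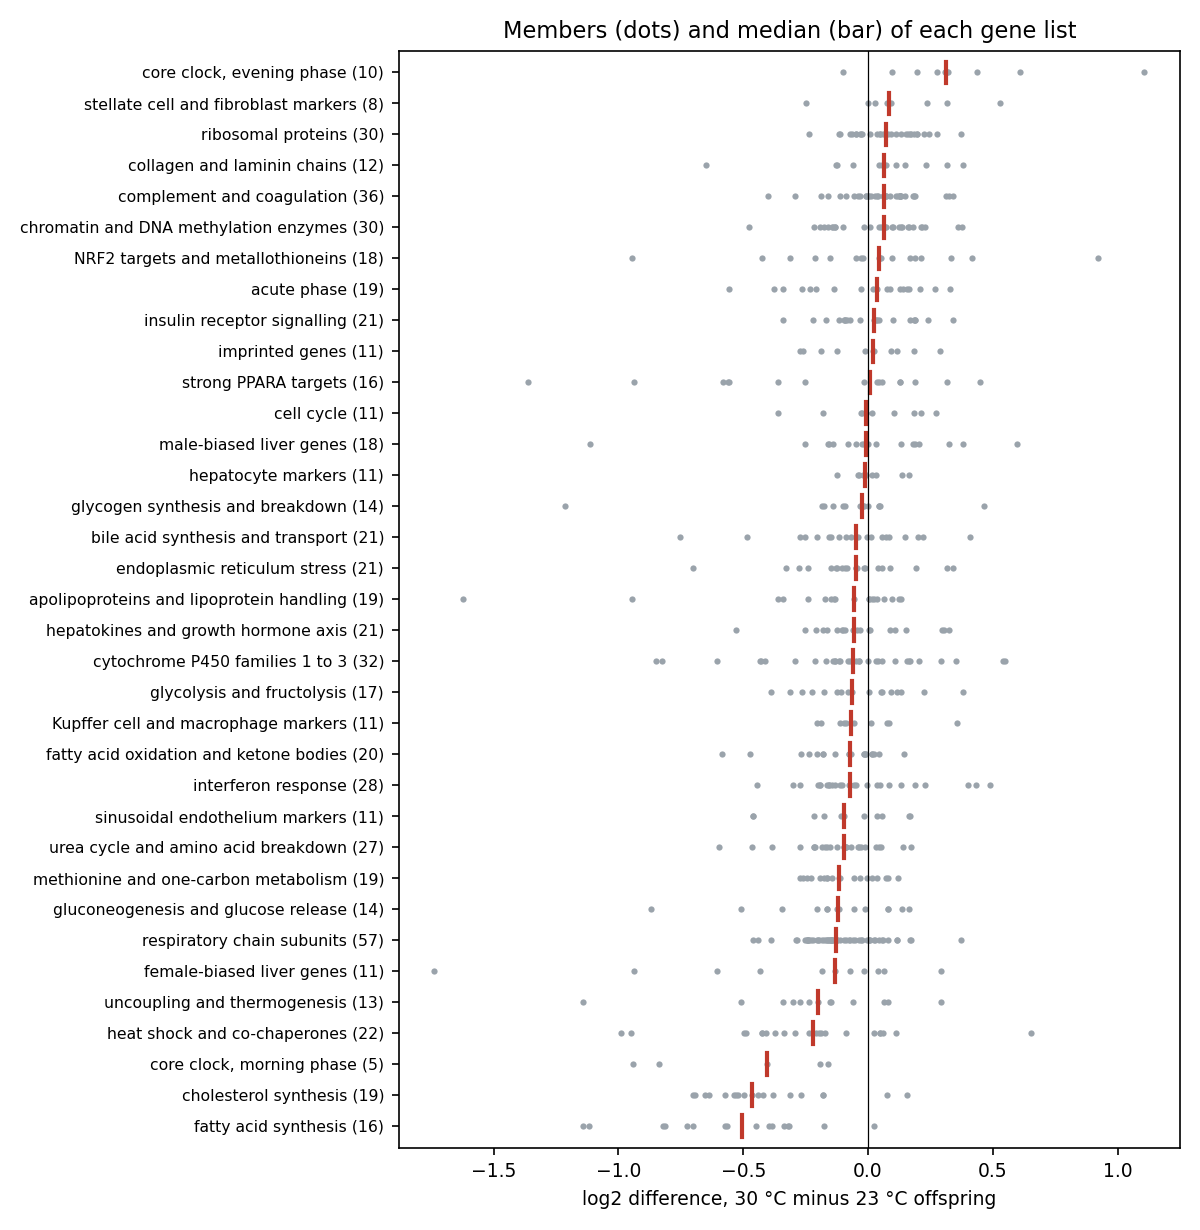
Log2 differences (30 °C minus 23 °C offspring, x axis) of the above-background members (dots) of the gene lists with at least 5 of them, with the number of members in brackets and a red bar at the median. The lists run from evening-phase clock genes at 0.31 to fatty acid synthesis at -0.51.

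The fatty acid synthesis list, whose enzymes turn acetyl-CoA from glucose into long-chain fatty acids, had the lowest median. Of 16 members above background 15 were lower and 1 was higher in 30 °C offspring, with a median of -0.51, and 3 lower members had an unadjusted p under 0.05, against 2.2% of all named clusters. Scd1, the desaturase that makes monounsaturated fatty acids, stood at 17.58, 18.24, 19.65, 19.16 and 19.81 against 19.70, 19.69, 19.64, 19.85 and 19.62. The SD of the 23 °C animals was 0.09, while 30 °C animals 4 and 5 were far lower. The difference was -0.81 ± 0.28 (unadjusted p = 0.0084, limma adjusted p = 0.978).

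Me1, the malic enzyme that supplies NADPH, stood at 13.19, 12.33, 13.86, 13.50 and 15.28 against 14.13 to 15.10 in 23 °C offspring (-1.12 ± 0.44). Animals 4, 5, 6 and 7 of the 30 °C group were below every 23 °C animal and animal 8 was above them all. Elovl5, an elongase of polyunsaturated fatty acids, differed by -0.82 ± 0.36, Acaca, acetyl-CoA carboxylase, by -0.34 ± 0.35 and Fads1, a desaturase, by -0.40 ± 0.25. Fasn, fatty acid synthase, stood at 11.95, 11.83, 14.27, 13.54 and 14.69 against 14.84, 15.18, 13.17, 13.53 and 13.07 (-0.70 ± 0.71), with 30 °C animals 4 and 5 lowest. Thrsp, a regulator of lipogenesis that is also in the list, differed by -1.14 ± 0.99.

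The list was carried by a few animals. Its mean deviation from the 10-array mean was -0.82 in 30 °C animal 4 and -1.33 in animal 5, but 0.72 in animal 8 of the same group. The 23 °C animals lay between -0.35, in animal 23, and 0.70, in animal 2. Leaving out 30 °C animal 5 moved the median of the list to -0.23, and leaving out animal 8 moved it to -0.85. Feeding state, which lipogenic genes follow, is not labelled, and its part in these values was not tested.

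The cholesterol synthesis list, the enzymes from acetyl-CoA to cholesterol, had 17 of 19 members lower and 2 higher, with a median of -0.46 and none at an unadjusted p under 0.05. The list turned on 1 animal. Nsdhl, a sterol dehydrogenase, stood at 14.52, 11.34, 15.12, 15.02 and 14.95 against 14.78, 15.05, 15.34, 15.29 and 14.01. Its difference was -0.70 ± 0.57, and 0.01 without 30 °C animal 5. The list mean of that animal was -1.98 relative to the 10-array mean, and without it the list median was 0.01. Insig1, which holds the sterol sensor in the endoplasmic reticulum, differed by -0.57 ± 0.43, Hsd17b7 by -0.52 ± 0.36 and Sc5d, a sterol desaturase, by -0.31 ± 0.27. Among controls, 23 °C animal 23 was low, with a list mean of -0.67.

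The promoter of Hmgcs1, which makes the precursor of mevalonate, is shown because it was the 1 of 15 matched list genes, of 19, whose window held the sterol regulatory element TCACCCCAC on either strand. This gene was chosen after its values were seen. Windows around the starts of 181 of 32851 transcripts in the RefSeq promoter table (0.551%) held the motif. Here and for the motifs below, list genes are counted by gene, with any window of a gene enough. The shares over the promoter table are counted by window. The stretch before the start lies at chr13:119690101-119690350 on the plus strand of GRCm38.p6, and capitals mark the match, 137 bases before the start. A match of letters is a description and not a binding site.
Hmgcs1: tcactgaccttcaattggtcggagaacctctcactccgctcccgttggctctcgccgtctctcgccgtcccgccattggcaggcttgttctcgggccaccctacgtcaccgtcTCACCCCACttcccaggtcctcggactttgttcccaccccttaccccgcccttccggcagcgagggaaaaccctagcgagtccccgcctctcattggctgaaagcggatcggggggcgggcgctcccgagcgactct
Hmgcs1 itself stood at 15.39, 13.60, 16.90, 17.26 and 17.32 in 30 °C against 16.80, 16.42, 17.55, 17.37 and 15.52 in 23 °C offspring, a difference of -0.64 ± 0.58 (limma adjusted p = 0.986). As in the list, 30 °C animals 4 and 5 and 23 °C animal 23 were the lowest.

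Genes of the circadian clock were read by phase. The clock is a feedback loop in which Arntl and its partners drive Per, Cry and Nr1d genes, whose products then shut them off. Of 10 evening-phase genes above background 9 were higher and 1 was lower in 30 °C offspring, with a median of 0.31. The 5 morning-phase genes were lower, with a median of -0.40. No clock gene had an unadjusted p under 0.05.

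Dbp stood at 15.42, 10.44, 13.77, 13.27 and 14.06 against 11.74, 16.29, 11.36, 9.44 and 12.60. The highest were 30 °C animal 4 and 23 °C animal 2, and the lowest 23 °C animal 17 and 30 °C animal 5, so both ends held animals of both groups. Arntl, the activator of the loop, mirrored this at 4.83, 8.67, 7.51, 7.94 and 7.81 against 8.52, 5.37, 9.16, 10.17 and 8.22 (-0.94 ± 0.88, limma adjusted p = 0.986). Npas2, a partner of Arntl, differed by -0.84 ± 0.48, Nfil3, which represses the genes that Dbp activates, by -0.40 ± 0.40 and Cry1 by -0.16 ± 0.21. On the evening side Cry2 differed by 0.43 ± 0.33, Per3 by 0.61 ± 0.66 and Nr1d1, a repressor of Arntl, by 0.32 ± 0.44.

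The list mean of the evening genes was 1.28 in 30 °C animal 4 and 1.56 in 23 °C animal 2, and -0.85 in 30 °C animal 5 and -1.31 in 23 °C animal 17. That of the morning genes was -1.21 and -1.05 in the first pair and 0.46 and 1.25 in the second. Without 23 °C animal 17 the median of the evening list was 0.05, without 30 °C animal 4 it was 0.06, and without 23 °C animal 2 it was 0.70. The time of death is not labelled, and its part in these values was not tested.

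The promoter of Per3, a period protein of the loop, carried the D-box TTATGNAA, the letters bound by Dbp and its relatives, and it was the 1 of 7 matched evening genes, of 10, that did. The motif, searched on both strands, lay in 3.38% of the 32851 windows. The stretch before the start is at chr4:151044666-151044915 on the minus strand of GRCm38.p6, from RefSeq, with both matches in capitals, 205 and 158 bases before the start.
Per3: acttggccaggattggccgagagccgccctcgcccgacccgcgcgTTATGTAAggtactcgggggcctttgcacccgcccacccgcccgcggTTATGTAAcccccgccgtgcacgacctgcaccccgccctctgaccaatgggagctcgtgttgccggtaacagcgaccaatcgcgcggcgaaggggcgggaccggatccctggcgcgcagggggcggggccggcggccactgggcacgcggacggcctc
Per3 levels were 8.56, 5.39, 6.41, 6.31 and 8.07 against 6.07, 8.67, 5.69, 5.36 and 5.90. The high animals of the Dbp order, 30 °C animal 4 and 23 °C animal 2, were high here too, and so was 30 °C animal 8.

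Heat shock proteins and their co-chaperones, which refold proteins and are induced by heat and other stress, had 16 of 22 members lower and 6 higher in 30 °C offspring, with a median of -0.22. At an unadjusted p under 0.05 were 1 lower and 0 higher members, against 2.2% and 2.19% of all named clusters. Hsph1, a nucleotide exchange factor of Hsp70, stood at 8.82, 10.79, 9.22, 8.67 and 8.45 against 11.31, 11.03, 9.23, 9.44 and 9.68 (-0.95 ± 0.45, limma adjusted p = 0.978). Hspa1b, an inducible Hsp70, stood at 5.04, 5.76, 5.86, 5.39 and 5.07 against 9.03, 7.31, 5.84, 4.76 and 5.14 (-0.99 ± 0.57), and only 23 °C animals 1 and 2 were high. Hspa1b and Hspa1a are nearly identical, so the share of each in these signals is uncertain.

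The small heat shock protein Hspb1 differed by -0.42 ± 0.22, the co-chaperones Chordc1 and Stip1 by -0.50 ± 0.26 and -0.42 ± 0.23. The list means were 0.70 in 23 °C animal 1 and 0.40 in 23 °C animal 2, against -0.10 to -0.25 in the other controls, and 0.26 in 30 °C animal 5 against -0.11 to -0.33 in the rest of its group. Without 23 °C animal 1 the median was -0.11. Of the cold-inducible RNA-binding proteins, Cirbp differed by 0.19 ± 0.24 and Rbm3 by -0.06 ± 0.22, and their groups overlapped.

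The heat shock element, searched as GAANNTTC, which reads the same on both strands, lay in the windows of 10 of 21 matched list genes, of 22, and in 7.86% of all 32851 windows. The first is a count of genes and the second a share of windows, so they give no measure of enrichment. Promoters of Hspb1 and Hspa1b are shown from RefSeq as examples of these 10, chosen with earlier results of these data known. That of Hspb1 lies at chr5:135887669-135887918 (plus strand) with matches 117 and 97 bases before the start. That of Hspa1b lies at chr17:34959239-34959488 (minus strand, GRCm38.p6) with a match 104 bases before it. Capitals mark the matches.
Hspb1: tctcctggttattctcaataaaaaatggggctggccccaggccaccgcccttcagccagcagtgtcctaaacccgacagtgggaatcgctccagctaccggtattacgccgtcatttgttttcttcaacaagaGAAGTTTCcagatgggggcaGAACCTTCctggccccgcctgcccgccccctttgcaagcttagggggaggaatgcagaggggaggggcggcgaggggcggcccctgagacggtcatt
Hspa1b: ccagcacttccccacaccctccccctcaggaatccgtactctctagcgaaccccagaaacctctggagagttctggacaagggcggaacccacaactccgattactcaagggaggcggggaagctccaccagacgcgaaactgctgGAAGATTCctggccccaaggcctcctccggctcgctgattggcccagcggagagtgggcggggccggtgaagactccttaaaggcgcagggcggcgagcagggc
Both promoters belong to genes whose 30 °C animals were lower on average without passing the test. Hspb1 stood at 5.41, 5.92, 5.38, 5.05 and 5.67 against 6.29, 5.98, 5.61, 5.96 and 5.71.

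The respiratory chain list, the nuclear-encoded subunits of the complexes that make ATP in mitochondria, had 43 of 57 members lower and 14 higher, with a median of -0.13. At an unadjusted p under 0.05 were 5 lower members and 1 higher, against 2.2% and 2.19% of all named clusters. Atp5pb, a stator subunit of ATP synthase, stood at 13.63, 13.89, 14.02, 14.18 and 14.10 against 14.37, 14.72, 14.40, 14.44 and 14.11. It differed by -0.44 ± 0.14 (limma adjusted p = 0.978), and 23 °C animal 23 lay inside the 30 °C range. Cox6a1 differed by -0.29 ± 0.12. Cox4i1, another subunit of cytochrome c oxidase, differed the other way by 0.37 ± 0.15, so the subunits of 1 complex did not share a sign. The list mean was lowest in 30 °C animal 4 (-0.24) and highest in 23 °C animal 2 (0.21). Without 30 °C animal 4 the median was -0.08, and it was -0.07 after the transcript clusters were quantile-normalised again.

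The list on uncoupling and thermogenesis had 10 lower and 3 higher members above background, with a median of -0.20, and 7 more were below it. At an unadjusted p under 0.05 were 0 of them. Its lowest member was Thrsp (-1.14), which is also in the fatty acid synthesis list. Ppargc1a, a coactivator of mitochondrial genes and of gluconeogenesis, stood at 8.17, 7.97, 8.42, 8.61 and 9.18 against 8.71, 9.55, 8.55, 9.92 and 8.18 (-0.51 ± 0.33). Thrb, the thyroid hormone receptor of liver, differed by -0.27 ± 0.16. Nrf1, a transcription factor of mitochondrial genes, differed by 0.29 ± 0.18. Ppargc1a overlapped widely between the groups.

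Genes of glucose handling, the subject of the study's title, gave no call. Of 14 genes of gluconeogenesis and glucose release 10 were lower and 4 higher, with a median of -0.12. G6pc, the phosphatase that releases free glucose, stood at 13.73, 16.56, 16.47, 15.49 and 14.17 against 17.40, 15.75, 15.69, 15.63 and 16.32. Animals 4 and 8 of the 30 °C group were lowest and 23 °C animal 1 was highest, and the difference was -0.87 ± 0.45 (limma adjusted p = 0.978). Pck1, which starts the path from oxaloacetate, stood at 17.08, 17.53, 16.38, 16.99 and 16.78 against 17.54, 17.33, 15.80, 16.73 and 16.67 (0.14 ± 0.28). Its 95% interval, -0.43 to 0.71, bounded a change to less than 2-fold. Mdh1 differed by -0.34 ± 0.15 and Fbp1 by -0.16 ± 0.14.

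Insulin receptor signalling had 11 members higher and 10 lower, with a median of 0.03 and 0 at an unadjusted p under 0.05. Insr, the receptor, stood at 14.42, 14.17, 14.51, 14.03 and 14.20 against 14.00, 14.03, 14.06, 14.12 and 14.19 (0.19 ± 0.12, 95% interval -0.07 to 0.44). The adaptors Irs1 and Irs2 differed by 0.10 ± 0.32 and -0.03 ± 0.41. Akt2, the kinase downstream, differed by -0.22 ± 0.13, Mtor by 0.24 ± 0.14 and Trib3, an inhibitor of Akt, by 0.34 ± 0.20. The interval of Irs2 ran from -0.89 to 0.82, so that gene was bounded less tightly than Insr.

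Glycogen genes had 5 members higher and 9 lower, with a median of -0.03, and besides Ppp1r3b none had an unadjusted p under 0.05. Gbe1, the branching enzyme, differed by -0.18 ± 0.19 and Ppp1r3c, another glycogen-targeting subunit, by 0.46 ± 0.56. Of 17 genes of glycolysis and fructose use 8 were higher and 9 lower. Aldoa, an aldolase, stood at 11.76, 12.20, 11.73, 11.70 and 11.53 against 11.26, 11.49, 11.41, 11.59 and 11.28 (0.38 ± 0.15, limma adjusted p = 0.978). Only 30 °C animal 8 lay within the control range. Igfbp1, which insulin lowers, differed by -0.09 ± 0.68 and was spread over both groups.

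Fatty acid oxidation had 15 lower and 5 higher members, with a median of -0.07. Ehhadh, the bifunctional enzyme of peroxisomes, stood at 13.76, 13.88, 14.38, 13.55 and 14.87 against 14.75, 14.70, 14.58, 14.79 and 14.55. Apart from animal 8, the 30 °C group was below every control, and the difference was -0.59 ± 0.22 (limma adjusted p = 0.978). Cpt1a, the gate of mitochondrial import, differed by 0.04 ± 0.22 with a 95% interval of -0.40 to 0.49. Ppara, the receptor that drives these genes, differed by -0.08 ± 0.31. Its strong targets were split, with 8 higher and 8 lower and a median of 0.01. Cyp4a10 differed by -0.94 ± 0.46, Plin2, a lipid droplet coat protein, by -0.36 ± 0.22 and Cyp4a32 by -0.56 ± 0.36, while other members were higher. The Cyp4a genes are close copies, and probes may be shared between them.

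In bile acid synthesis and transport 8 genes were higher and 13 lower, with a median of -0.05. Cyp7a1, the rate-limiting enzyme, stood at 14.37, 12.77, 16.94, 16.21 and 15.82 against 15.25, 15.75, 15.28, 14.88 and 14.67 (0.05 ± 0.57). The means were close, but the 30 °C animals were spread (SD 1.66) more widely than the controls (SD 0.41). Nr0b2, the bile acid-induced repressor of Cyp7a1, differed by -0.76 ± 0.43, with 23 °C animal 2 at 14.00 above the rest. Abcb11, the bile salt export pump, differed by -0.27 ± 0.18. Of 19 apolipoprotein and lipoprotein genes 9 were higher and 10 lower. Apoc3, an inhibitor of triglyceride clearance, differed by -0.36 ± 0.17, Scarb1, the HDL receptor, by -0.24 ± 0.22 and Angptl8, a feeding-induced secreted protein, by -0.94 ± 0.88. The last value was -0.33 without 30 °C animal 7 and -1.79 without 30 °C animal 5.

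Lists of sex-biased liver genes, which follow growth hormone and sex steroids, varied among the animals of both groups. Male-biased liver genes had 9 higher and 9 lower members (median -0.01), female-biased ones 3 higher and 8 lower (median -0.13). In 30 °C animal 8 the male-biased list stood at -0.70 and the female-biased list at 0.69, and in 23 °C animal 2 at -0.41 and 0.68. In 30 °C animal 4 they stood at 0.41 and -0.66. Cyp3a44, a female-biased P450, stood at 7.64, 8.64, 8.57, 8.99 and 9.01 against 9.60, 8.94, 9.15, 8.96 and 9.20 (-0.61 ± 0.22). Bcl6, a repressor of female-biased genes, differed by -1.12 ± 1.12 with levels of 5.33 to 11.08 in 30 °C and 7.33 to 10.85 in 23 °C offspring. It was -0.47 without 30 °C animal 5 and -1.91 without 30 °C animal 6.

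Igf1, the main growth factor that liver releases, differed by -0.06 ± 0.12, with levels between 18.52 and 18.95 in all 10 animals. Its binding partner Igfals differed by 0.32 ± 0.23 and Ghr, the growth hormone receptor, by -0.16 ± 0.12. Igfbp2 differed by 0.30 ± 0.31. In P450 families 1 to 3, 13 genes were higher and 19 lower. Cyp2c38 differed by -0.85 ± 0.37, Cyp2c39 by -0.83 ± 0.44 and Ahr, the receptor that induces the Cyp1 genes, by 0.55 ± 0.27. Cyp2c and Cyp3a genes are families of close copies, so single members are uncertain.

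Genes of amino acid handling gave no call. Of 27 urea cycle and amino acid breakdown genes 22 were lower and 5 higher, with a median of -0.10 and 0 at an unadjusted p under 0.05. Got1, an aminotransferase, stood at 11.92, 12.58, 13.57, 13.80 and 14.91 against 13.43, 13.73, 14.07, 15.32 and 13.21 (-0.60 ± 0.43). Got2, Gpt2 and Oat differed by -0.21 ± 0.12, -0.47 ± 0.29 and -0.39 ± 0.28. The list mean was -0.40 in 30 °C animal 4, and without that animal the median was -0.04. Of 19 methionine and methyl-group metabolism genes 14 were lower and 5 higher (median -0.12). Bhmt, which remethylates homocysteine, differed by -0.27 ± 0.16.

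Genes for plasma proteins were higher more often than lower. Of 36 complement and coagulation genes 25 were higher and 11 lower, with a median of 0.07. F12, a coagulation factor, stood at 13.57, 13.45, 13.27, 13.31 and 13.57 against 13.16, 13.15, 12.81, 13.19 and 13.16, with no overlap (0.34 ± 0.12, limma adjusted p = 0.978). F5 differed by 0.31 ± 0.15 and Masp2, a protease of the lectin pathway, by -0.40 ± 0.13. The acute phase list was split, with 11 higher and 8 lower. Hp, haptoglobin, differed by 0.27 ± 0.18 and Orm2, an acid glycoprotein, by -0.56 ± 0.24.

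Of 28 interferon response genes 9 were higher and 19 lower, with a median of -0.07. At an unadjusted p under 0.05 were 3 higher and 0 lower members, against 2.19% and 2.2% of all named clusters. These were Psmb10 (0.49 ± 0.19) and Psmb8 (0.43 ± 0.19), subunits of the immunoproteasome that prepares peptides for antigen display, and Igtp (0.40 ± 0.17), an interferon-induced GTPase. Igtp stood at 7.53, 7.21, 7.37, 7.53 and 7.56 against 7.22, 6.91, 6.86, 7.34 and 6.85. Psmb10 was spread in the 30 °C group, from 6.90 in animal 7 to 8.26 in animal 4.

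Of 30 chromatin and DNA methylation enzymes 19 were higher and 11 lower, with a median of 0.06. Sirt1, a deacetylase that depends on NAD, stood at 7.77, 8.29, 8.24, 8.46 and 8.52 against 8.51, 8.80, 8.88, 8.83 and 8.65. The groups met at 30 °C animal 8 and 23 °C animal 1, and the difference was -0.48 ± 0.16 (unadjusted p = 0.0059, limma adjusted p = 0.978). Ehmt2, a histone H3 methyltransferase, differed by 0.36 ± 0.15 and Hdac4, a histone deacetylase, by 0.38 ± 0.16. Of 11 imprinted genes above background 6 were higher and 5 lower, and 15 more were below it. Ube3a differed by 0.29 ± 0.15. Of 30 ribosomal protein genes 20 were higher and 10 lower (median 0.07), and Rps28 stood at 10.44 to 10.94 against 10.08 to 10.31 without overlap (0.37 ± 0.12).

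Markers of the cell types of liver gave no call either. Hepatocyte markers had 4 higher and 7 lower members, with a median of -0.01, and their summed level was 22.39 to 22.53 in 30 °C and 22.47 to 22.55 in 23 °C offspring on the log2 scale. Kupffer cell and macrophage markers had 4 higher and 7 lower (median -0.07), with summed levels of 11.22 to 12.29 and 11.02 to 12.10. The macrophage marker Adgre1 differed by 0.36 ± 0.27 and Csf1r by -0.21 ± 0.25. Sinusoidal endothelium markers had 4 higher and 7 lower (median -0.10), and Gpr182 differed by -0.46 ± 0.20. Of 8 stellate cell and fibroblast markers 6 were higher (median 0.08), with Acta2 at 0.53 ± 0.44. Of 6 B cell and 9 neutrophil markers measured, 0 were above background. T and NK cell, bile duct, fat and pancreas lists had 1 marker each above it, of 12, 7, 7 and 7 measured, and the pancreas enzymes Cela1, Prss2 and Cpa1 were below.

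The animals varied among themselves within both groups. The median SD over the 9413 clusters was 0.283 in 30 °C and 0.250 in 23 °C offspring, and it was larger in the 30 °C group for 58.7% of clusters, a difference that was not tested. Animal 4 of the 30 °C group was the highest or the lowest of the 10 animals in 29.9% of clusters, and 30 °C animal 5 in 24.0%. For 23 °C animal 17 the share was 23.1% and for 23 °C animal 23 it was 12.4%. With 10 animals alike, each would be the highest in 1 of 10 clusters and the lowest in as many. With animal 4 left out, the median SD of the 30 °C group was 0.264. The SD within the groups exceeded 1 in 106 clusters.

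**Figure D4:**
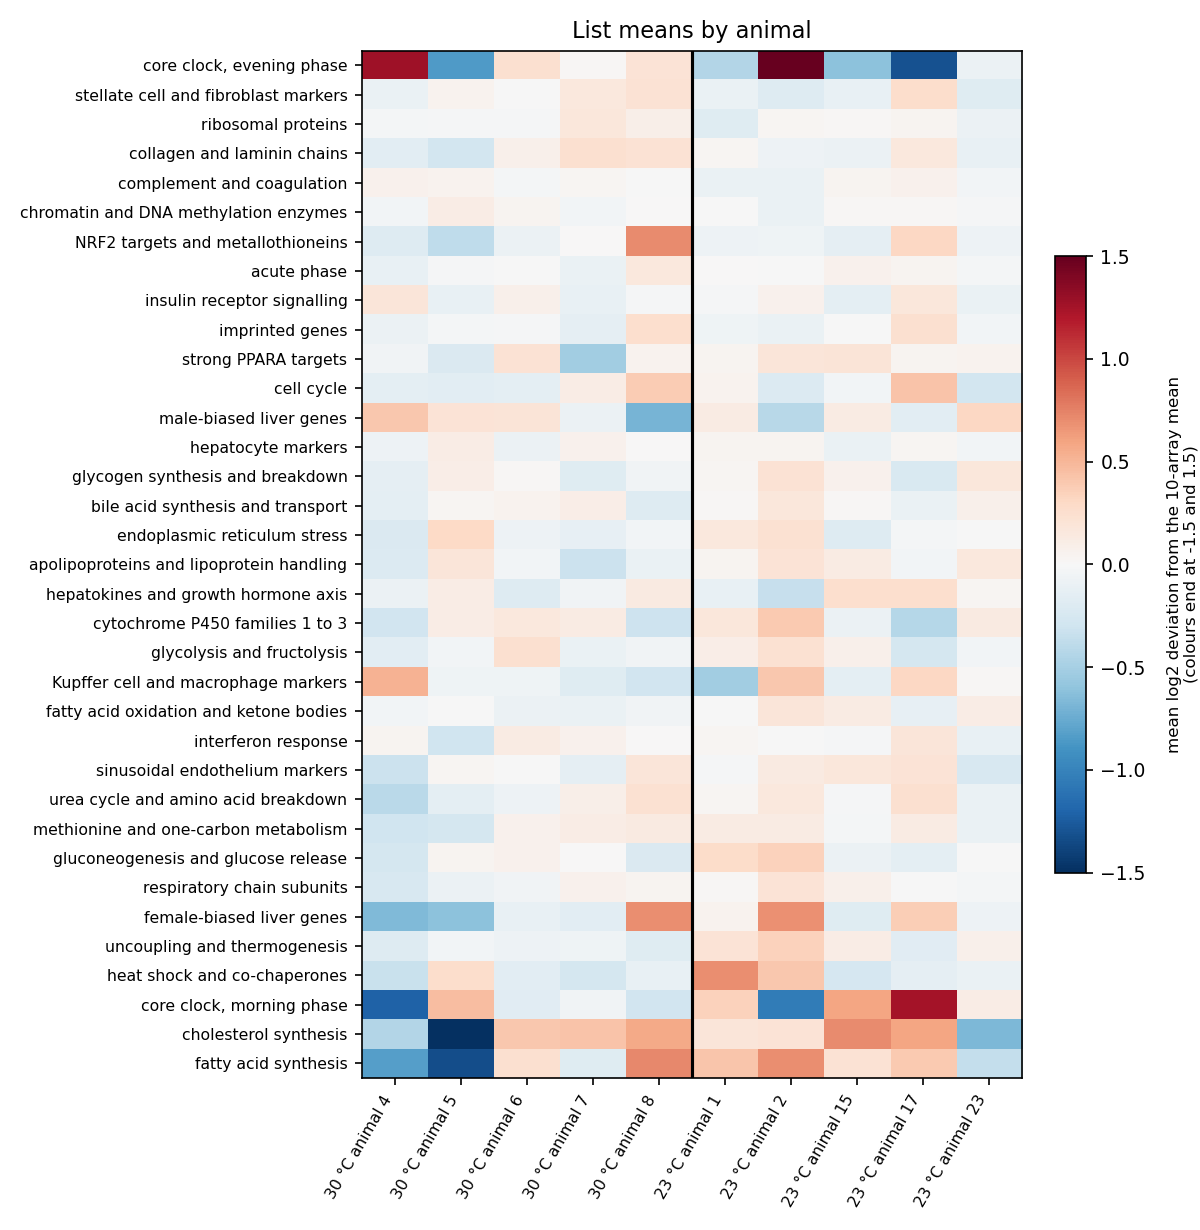
Mean log2 deviation of each gene list (rows) from the 10-array mean in each animal (columns), with 30 °C offspring left and 23 °C offspring right of the line. Colours end at -1.5 and 1.5, and the strongest are the clock lists in 30 °C animal 4 and 23 °C animals 2 and 17 and cholesterol and fatty acid synthesis in 30 °C animal 5.

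The 6 genes with the largest spread within groups, Dbp among them, overlapped widely between the groups. Rgs16, a regulator of G protein signalling, stood at 9.02, 3.24, 7.83, 4.16 and 4.93 against 4.08, 11.80, 3.16, 3.22 and 3.77, with 30 °C animal 4 and 23 °C animal 2 at the top, as for Dbp. Egr1 stood at 9.74, 5.77, 10.88, 9.34 and 7.33 against 5.76, 11.75, 5.96, 10.40 and 5.34. Its highest animals were 23 °C animal 2 and 30 °C animal 6, and both groups also held low animals. Cish, an inhibitor of cytokine and growth hormone signalling that the STAT5 factor induces, stood at 4.13, 7.24, 3.10, 6.35 and 7.57 against 3.82, 3.00, 8.37, 8.25 and 3.47. It was high in 30 °C animals 5, 7 and 8 and 23 °C animals 15 and 17, and close to background in the others.

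Abcd2, a peroxisomal transporter of very long-chain fatty acids, stood at 7.08, 4.80, 5.83, 6.55 and 11.40 against 5.20, 6.73, 6.36, 11.11 and 5.94, with 1 animal of each group, 30 °C animal 8 and 23 °C animal 17, far above the rest. Foxq1, a forkhead transcription factor, was high in the same animals, at 8.87 and 9.01, and also in 30 °C animal 7 (8.33) and 23 °C animal 15 (8.03). The differences of these genes between the groups were 0.06 ± 1.03 for Abcd2, 0.30 ± 1.02 for Cish, 0.29 ± 1.17 for Foxq1 and 0.63 ± 1.70 for Rgs16 (limma adjusted p = 0.999 for Rgs16 and higher for the other three). The 95% interval of Rgs16 ran from -2.90 to 4.16, so a change of many-fold in it was not bounded.

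**Figure D5:**
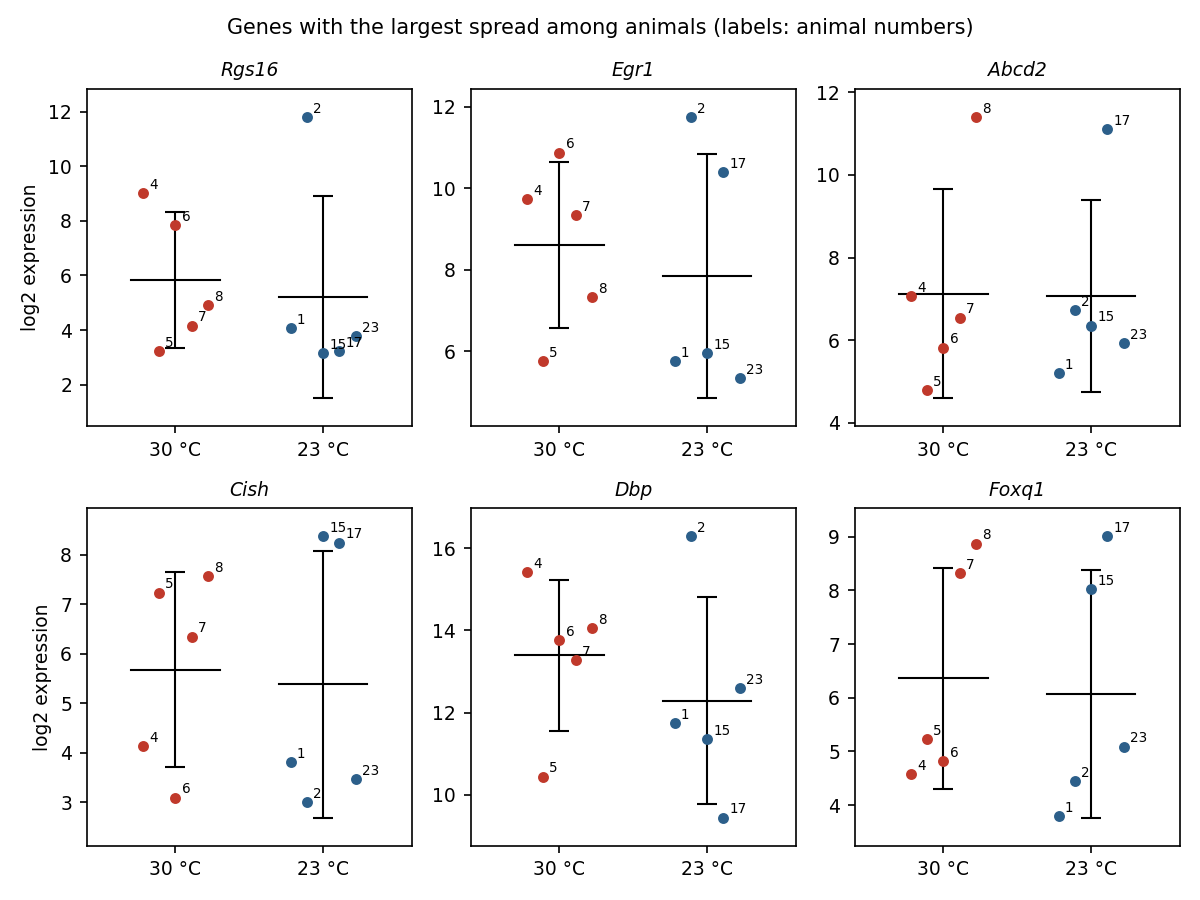
Log2 expression (y axis) of the 6 genes with the largest spread within groups, in 30 °C and 23 °C offspring. Points are animals with their numbers, horizontal lines are means and bars are 1 SD (n = 5). High and low animals stand in both groups, such as 30 °C animal 8 and 23 °C animal 17 for Abcd2.

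Mean levels in all 4 maternal groups are given, without a test, for the 2 genes with the smallest p each way and for Trmt11, Scd1 and Pltp, which were chosen after their values were seen. In the order 30, 23, 18 and 10 °C, Herc3 averaged 5.91, 5.15, 4.99 and 5.80 and Ppp1r37 7.99, 7.55, 7.90 and 7.91. Gm4349 averaged 4.60, 5.18, 4.98 and 4.76, and Mcee 10.06, 10.59, 10.47 and 10.17. Trmt11 averaged 6.41, 5.77, 5.96 and 5.78, Scd1 18.89, 19.70, 19.60 and 19.53 and Pltp 9.92, 11.54, 12.66 and 11.24. For each of these 7 genes the 30 °C mean lay beyond the means of the other 3 groups. It did so narrowly for Ppp1r37, whose 23 °C mean was the one apart, and for Herc3 and Mcee, whose 10 °C means were close. All 7 were picked by their 30 °C against 23 °C values, and that choice favours such a place for the 30 °C mean.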

How the data were processed

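The values are RMA log2 expression levels as the authors deposited them, 1 per row and array. RMA corrects background, quantile-normalises arrays and summarises probes, and the submitters' processing notes name it and the Transcriptome Analysis Console. Quantile normalisation hides a shift of all transcripts together. Neither settings nor a genome build are stated in the labels or notes. Of 28846 rows, 6640 were control rows. Of 22206 transcript clusters, the platform annotation gave 1 symbol to 19572 and none to 2634, and all 19572 matched RefSeq gene identifiers.

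All 20 arrays entered a 4-group model in limma 3.58.1 (R 4.3.3), with two-sided tests, with a Benjamini-Hochberg adjustment over 22206 clusters and a threshold of 0.05. The fit was tested on simulated data. Number of arrays limits precision. The members and lists were chosen with earlier results of these data known, so lists were given no test.

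Genes were named by rule among named clusters above background. The rule took the 10 higher and 10 lower by p, the 6 each way by size, the 5 each way by gap, the 6 by spread, the 4 members of each list with the smallest p, and 25 fixed genes. For a gene with several clusters the highest mean was used. Of the fixed genes, Fgf21 averaged 2.95, below background, and 5 are not analysed here. Alternatives covered samples in the fit, variance model, normalisation, background filter and leaving out each array.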

Additional observations from a re-analysis of the deposited data

Results flagged for a closer look

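In each group of 5 animals the gap of the highest or lowest animal to its nearest neighbour was set against the group's range. Of 452 such checks, over 191 genes and 35 lists, 29 (6.42%) were past Dixon's 95% bound, where chance gives about 1 in 20. Genes of a list are not independent of each other.

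In the 30 °C group, animal 4 was low for Abcb11 (gap 0.776 of the range) and high for Adgre1 (0.785), Mki67 (0.714), a proliferation marker, and Ppara (0.895). Animal 5 was low for Nsdhl (0.840) and high for Stip1 (0.7103). Animal 6 was high for Hlcs (0.868), animal 7 was high for Ddb2 (0.792) and animal 8 was low for Ghr (0.824). Of the lists, animal 4 was high for Kupffer cell and macrophage markers (0.728), animal 5 was low for interferon response (0.714) and animal 6 was high for glycolysis and fructolysis (0.7102).

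In the 23 °C group, animal 2 was high for Nr0b2 (0.733), Pdk2 (0.792), Per3 (0.786) and Rgs16 (0.894). Animal 15 was low for F12 (0.911) and Hdac4 (0.725). Animal 17 was high for Abcd2 (0.740), Acta2 (0.775), Cps1 (0.764) and Desi2 (0.792). Animal 23 was high for Col3a1 (0.746) and low for Insig1 (0.900), Lrat (0.744) and Pltp (0.825). Of the lists, animal 17 was high for NRF2 targets and metallothioneins (0.853) and for stellate cell and fibroblast markers (0.805), and animal 2 was low for chromatin and DNA methylation enzymes (0.736).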

How the results depend on the processing

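No transcript cluster passed limma's adjusted p of 0.05 in any setting or in the 20 fits that left out 1 array each (0 to 0), and the smallest adjusted p was 0.289, without 30 °C animal 4, and 0.382, without 23 °C animal 23. Leaving out 1 array gave 163 to 268 named clusters higher at an unadjusted p under 0.05, and 118 to 265 lower, with 118 without 30 °C animal 4. Clusters without overlap numbered 60 to 100 higher and 32 to 69 lower, with fewer animals to overlap. With the background level as a covariate Cpt1a was -0.0024 and Irs2 0.0065, both with the sign turned, and the cause was not tested. Leaving out 1 animal turned the sign for Abcd2 (-1.005 to 1.07), C1qa (-0.26 to 0.041), Cd4 (-0.35 to 0.00085), Cirbp (-0.044 to 0.33), Cish (-0.30 to 1.04), Cps1 (-0.071 to 0.0041), Cpt1a (-0.044 to 0.16), Cyp7a1 (-0.38 to 0.67), Foxq1 (-0.34 to 1.03), Igfbp1 (-0.68 to 0.34), Irs1 (-0.015 to 0.31), Irs2 (-0.36 to 0.20), Nsdhl (-0.94 to 0.010), Pck1 (-0.12 to 0.32), Ppara (-0.34 to 0.074), Rbm3 (-0.23 to 0.11) and Rgs16 (-0.17 to 2.28). Leaving out 1 animal also turned the sign of several list medians, cholesterol synthesis among them. The other lists with a bound past 0.05 on the turned side were strong PPARA targets (-0.21 to 0.073), insulin signalling (-0.051 to 0.096), male-biased genes (-0.055 to 0.20), NRF2 targets (-0.071 to 0.083), P450 families (-0.14 to 0.072) and cell cycle (-0.053 to 0.078). Kupffer cell markers ran from -0.19 to 0.047. No paired analysis was possible because the labels give no link between single animals of the 30 °C and 23 °C groups.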

Other observations

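Some gene groups not described above were near 0. Endoplasmic reticulum stress genes had 6 higher and 15 lower members (median -0.05), with Hspa5, the main chaperone of that compartment, at -0.27 ± 0.20 and Creld2 at -0.70 ± 0.55 (SE, n = 5 per group). NRF2 targets and metallothioneins had 10 higher and 8 lower (median 0.05). Their regulator Nfe2l2 differed by -0.42 ± 0.20, at 5.70 to 6.24 in 30 °C and 6.06 to 6.61 in 23 °C offspring, and Gsta2, a glutathione transferase, by -0.95 ± 0.57. Slc30a1, a zinc exporter, differed by 0.33 ± 0.18.

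Cell cycle genes had 5 higher and 6 lower members above background and 15 below it. Collagen and laminin chains had 8 higher and 4 lower (median 0.07), with Lama4 at 0.38 ± 0.17 and Eln, elastin, at -0.65 ± 0.29. Each of these genes had a limma adjusted p of 0.978.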
